A study of Mus musculus with 14 samples.

Results

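The newborn granule neurons of the late embryonic cerebellum were examined in the hindbrain libraries of E18.5 (embryonic age in days). They were chosen by raw counts of unique molecular identifiers (UMIs, 1 per captured transcript molecule). A cell was taken when it held at least 2 UMIs of Nhlh1, at least 2 of Neurod1 and at least 1 of Pax6, no UMI of Tlx3, Barx2, Mki67, Top2a, Hoxb2, Hoxb3, Hoxb4 or Hoxb5, and at most 4 of Eomes. Cells had to pass 1000 detected genes and less than 10% of UMIs from mitochondrial genes. Of 55054 such E18.5 cells, 2951 met the gates, 394, 583 and 437 in control libraries 1 to 3 and 412, 595 and 530 in Atoh1S193A/- libraries 1 to 3. Because the levels of these 12 genes chose the cells, they are given as a description only, and none of them counts as a finding.

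The series holds 14 libraries of tdTomato-labeled Atoh1-lineage cells, made with the 10x Genomics 3′ kit from mice on the C57BL/6J background. The control embryos carried Atoh1Cre/+;Rosalsl-tdTomato/+, and the embryos called Atoh1S193A/- carried Atoh1Cre/S193A;Rosalsl-tdTomato/+. In both genotypes Cre replaces the coding region of 1 Atoh1 allele, so the controls were heterozygous for Atoh1 and the mutants had the S193A allele, which changes a serine to an alanine, as their sole source of the protein. Cre from the Atoh1 locus drives the reporter, so a labeled cell is any descendant of an Atoh1-expressing cell. Each E18.5 library came from the whole hindbrain of 1 embryo, with 3 embryos per genotype, and the same replicate number was taken to mark littermates. E14.5 has the same layout, and the 2 control libraries of postnatal day 5 (P5) came from pontine nuclei pooled over several pups. The S193A change lies in the coding sequence and 3′ counts do not separate the alleles, so the level of Atoh1 cannot check the genotype.

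Cerebellar granule neurons arise from Atoh1-expressing progenitors of the upper rhombic lip. These progenitors spread over the surface of the cerebellum as the external granule layer and divide there under Sonic hedgehog. When a progenitor leaves the cell cycle, Atoh1 is shut down, basic helix-loop-helix (bHLH) factors such as Neurod1 and Nhlh1 come on, and the newborn neuron extends parallel fibers before it migrates inwards. Among the negative gates, Eomes marks unipolar brush cells of the same rhombic lip, and Hoxb2 to Hoxb5 mark cells of the hindbrain behind the cerebellum.

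The E18.5 libraries held between 108239001 and 183911797 UMIs in all. The chosen cells had a median of 12832 UMIs, 3996 genes and 4.28% mitochondrial UMIs. Their median UMI count was 15790.5, 11867 and 14645 in the control libraries and 13630, 12401 and 10461.5 in the Atoh1S193A/- libraries, so mutant libraries 1 and 3 were shallower than their littermate controls. Between 14 and 34 kept barcodes were shared by each pair of E18.5 libraries, and 1 barcode of a chosen cell occurred in more than 1 library.

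Genes outside the gates fitted the label. Zic1, a zinc finger factor of granule cells, was detected in 99.9% of the chosen cells on average over the 6 libraries, and Zic2 in 97.5%. Barhl1, a homeobox factor of the granule lineage, was detected in 89.5%. These 3 hardly set the chosen cells apart, being detected in 98.1%, 90.7% and 81.7% of the other kept E18.5 cells. Cntn2 (TAG-1), an axonal adhesion molecule of newborn granule cells, was detected in 84.7% of the chosen cells and 50.2% of the others. Reln, which granule neurons secrete to guide Purkinje cells, was detected in 98.0% of the chosen cells and 84.0% of the others, and Nhlh2, the close relative of Nhlh1, in 93.9% and 62.9%.

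Many markers of other cells were low in the same cells. Lmx1a and Calb2, markers of unipolar brush cells, were detected in 2.0% and 4.9% of the chosen cells, against 17.5% and 15.9% of the others. Gad1, Gad2, Pax2 and Ptf1a of inhibitory neurons were detected in 0.7%, 1.2%, 0.3% and 0.029%, against 2.8%, 7.0%, 1.0% and 0.40% of the others. Tbr1 and Lhx2 of the cerebellar nuclei were detected in 1.1% and 1.4%, against 1.7% and 3.7%. Sox10, Sln and Gabra6, which mark oligodendrocyte lineage cells, unipolar brush cells and mature granule neurons, had no UMI in any of the 2951 cells. That allows a share of cells with a UMI of up to 0.102% (3 counts, counting error only). It sets no limit on cells that express the gene at a low level. In the other kept cells these 3 were rare too, at 0.097%, 0.54% and 0.085%. The absence of Sox10 and Gabra6 therefore hardly sets the chosen cells apart. Not all markers were low. Otx2, a rhombic lip factor that unipolar brush cells keep, was detected in 42.7%, against 62.0% of the others. Lhx1, on the list of inhibitory neuron markers, was detected in 75.3% against 47.6%. Pdgfra and Mbp, on the oligodendrocyte lineage list, were detected in 44.7% and 39.3%, against 22.5% and 21.6%.

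The gates cut through a continuum. The chosen cells held a median of 4 Nhlh1 UMIs, with 2 at the 10th and 8 at the 90th percentile and 21 in the highest cell. At the edge, 884 chosen cells held exactly 2 Nhlh1 UMIs, and 1532 cells met every other gate with 1 UMI. The Neurod1 and Pax6 gates had few cells near them, with 2 cells just inside and 8 just outside for Neurod1 and 12 and 5 for Pax6. Eomes had 212 cells just inside, at 4 UMIs, and 142 just outside, at 5. The cell cycle gate removed 561 cells that carried a single UMI of Mki67 or Top2a, and the Tlx3 gate removed 293 with a single UMI.

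To see what sets the newborn neurons apart from their neighbors in the lineage, their summed counts were compared with those of other classes cut by the same genes. These differences are a description without a test, because the gates made the classes. Levels are given in CPM, the UMIs of a gene scaled to 1000000 UMIs per class and library, as mean ± SD over the 6 libraries, and every gene named differed in the same direction in 6 of 6 libraries unless stated.

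Against 3576 dividing progenitors (Pax6-positive cells with at least 2 UMIs of Mki67 and Top2a together, no Nhlh1, and the same Tlx3, Barx2, Eomes and Hox gates), the newborn neurons were lower in Atoh1 and the cyclins and higher in Cartpt, the neurofilament genes and Cntn2. Atoh1 stood at 17.2 ± 8.68 CPM in the newborn neurons and 74.7 ± 10.3 CPM in the progenitors. Ccnd1, the cyclin that Sonic hedgehog drives in these progenitors, stood at 33.4 ± 6.95 against 452 ± 36.4 CPM. Ccnd2 stayed high in the newborn neurons, at 630 ± 74.5 against 1257 ± 179 CPM. The hedgehog transcription factor Gli1 stood at 5.15 ± 2.40 against 36.6 ± 4.33 CPM, and the hedgehog receptor Ptch1 at 79.6 ± 9.04 against 161 ± 13.4 CPM. The genes with the largest deficits were mitotic, led by Nusap1 (2.53 ± 1.29 against 304 ± 25.0 CPM), Hmmr, Esco2, Cenpf and Tpx2, and by Cdk1, the mitotic kinase (4.27 ± 2.30 against 263 ± 12.8 CPM). With Mki67 and Top2a in the gates, these deficits follow from the choice of cells.

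Named genes with excesses over the progenitors follow. Cartpt, a neuropeptide precursor, stood at 356 ± 119 CPM in the newborn neurons and 9.72 ± 4.58 CPM in the progenitors. The neurofilament genes Nefm and Nefl stood at 506 ± 35.2 and 459 ± 52.2 CPM, against 37.7 ± 4.43 and 42.8 ± 6.60 CPM. Cntn2 stood at 243 ± 19.7 against 21.6 ± 3.46 CPM, and Myt1, a zinc finger factor of neuronal differentiation, at 107 ± 8.26 against 8.31 ± 1.68 CPM. Barhl1 did not separate the classes over both genotypes together, with 265 ± 15.0 against 236 ± 52.5 CPM and a higher level in 3 of 6 libraries. The wide spread of the progenitors followed the genotype. Scaled as in the genotype fits, they stood at 301, 274 and 272 CPM in controls and 192, 192 and 186 CPM in mutants.

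Against 5944 cells of the same gates without Nhlh1 (no Nhlh1 UMI, at least 2 of Neurod1, no cycling gene), the newborn neurons carried a second set of genes. Id1, an inhibitor of bHLH factors, stood at 89.5 ± 13.6 against 7.97 ± 1.46 CPM. Pdgfra, a receptor better known from oligodendrocyte precursors, stood at 69.2 ± 8.28 against 11.9 ± 2.98 CPM, while Sox10 had no UMI in the newborn neurons. Gadd45a, a growth arrest gene, stood at 94.7 ± 5.90 against 16.7 ± 1.13 CPM, Sept4, a septin, at 149 ± 23.2 against 16.5 ± 2.33 CPM, and Clic1, a chloride channel protein, at 537 ± 28.2 against 93.0 ± 11.0 CPM. Nhlh2, Lhx1 and Cntn2 were also higher, by 1.61, 1.61 and 1.93 on the log2 scale.

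Other genes were lower than in the Nhlh1-negative cells. Chl1, a cell adhesion molecule of growing axons, stood at 17.7 ± 5.20 against 178 ± 14.7 CPM. Syt6, a synaptotagmin, stood at 5.35 ± 0.511 against 78.8 ± 12.5 CPM. Grin2b, an NMDA receptor subunit, stood at 90.2 ± 10.6 against 278 ± 32.7 CPM, above the 18.4 ± 7.57 CPM of the progenitors. Calb2 was lower as well, at 8.66 ± 4.79 against 94.0 ± 17.7 CPM, so the Nhlh1-negative class also held cells with a unipolar brush cell marker in spite of the Eomes gate.

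Against 7294 cells with more than 4 Eomes UMIs, no Hoxb2 to Hoxb5 and no cycling gene, the newborn neurons were again higher in Id1 (8.56 ± 1.21 CPM in the Eomes-high cells), Cartpt (40.3 ± 16.9 CPM), Sept4, Pdzrn3 and Pdgfra, and lower in Calb2 (628 ± 115 CPM in the Eomes-high cells), Grp, a neuropeptide, and Lmx1a (99.2 ± 5.89 against 1.84 ± 0.714 CPM). Against the 105 cells that met all gates but carried at least 2 UMIs of Hoxb2 to Hoxb5, they were higher in the midbrain-hindbrain factors En1 (80.3 ± 17.2 against 26.9 ± 15.4 CPM) and En2 (66.8 ± 5.42 against 22.3 ± 10.3 CPM) and lower in Crabp1, Robo3, a receptor of commissural axons (0.647 ± 0.423 against 145 ± 94.3 CPM), and Hoxa2, Hoxa3 and Hoxa5. That class held only 6 to 29 cells per library, so its levels are imprecise.

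**Figure D1:**
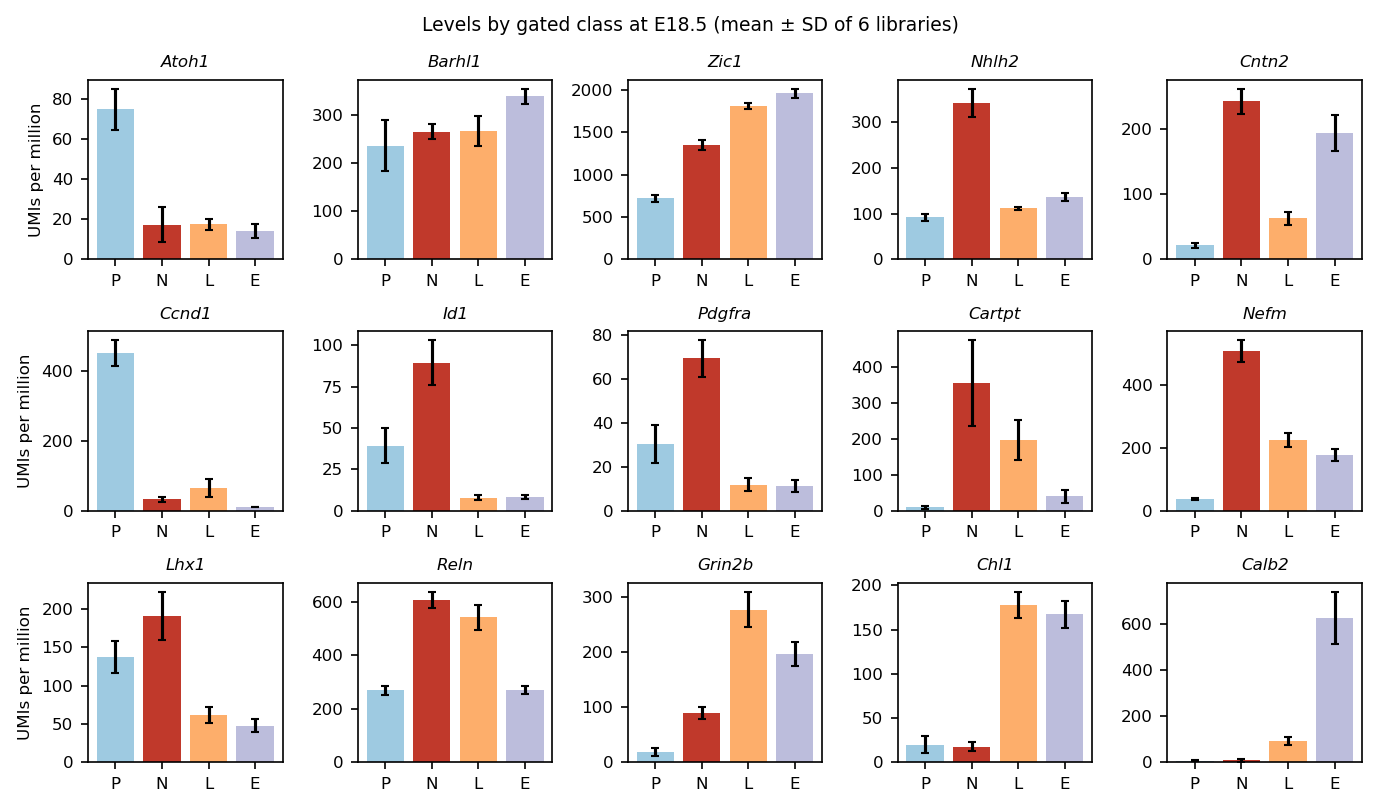
Levels of 15 genes at E18.5 in dividing progenitors (P), the newborn granule neurons (N), Nhlh1-negative Neurod1-positive cells (L) and Eomes-high cells (E). Bars are the mean and error bars the SD over 6 libraries, in CPM, on axes that start at 0. Ccnd1 and Atoh1 are high in P, Id1, Pdgfra, Nhlh2 and Cartpt are highest in N, Grin2b and Chl1 are higher in L and E than in N, and Calb2 is high in E. The gates made the classes, so the differences are a description.

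The newborn neurons also differed among themselves. Cells with 5 or more Nhlh1 UMIs (1041 cells) and cells with exactly 2 (884 cells) were compared within each library, again as a description. The cells with more Nhlh1 had more Id1 (125 ± 20.2 against 46.3 ± 13.3 CPM), Sept4 (207 ± 38.1 against 84.8 ± 17.3 CPM), Pdzrn3, Pdgfra, Gadd45a and Insm1, a zinc finger factor of neurogenesis (495 ± 19.7 against 301 ± 47.0 CPM), in 6 of 6 libraries. They had less Syt4, a synaptotagmin (33.5 ± 7.23 against 160 ± 45.3 CPM), Ntm, a neurite adhesion molecule (46.7 ± 18 against 183 ± 49.8 CPM), Nr2f2, a nuclear receptor (81.8 ± 15.2 against 257 ± 33.5 CPM), and Dnm3, a synaptic dynamin (40.0 ± 8.56 against 130 ± 47.7 CPM). 4 of the higher genes, Id1, Sept4, Pdzrn3 and Pdgfra, were also among the genes that most separated the chosen cells from the Nhlh1-negative cells. Both comparisons sort cells by Nhlh1 UMIs, so the shared genes are not independent support. Median depth rose with the Nhlh1 count, from 11774.5 UMIs at 2 Nhlh1 UMIs to 14019 at 5 or more.

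Most of the chosen cells held some Eomes: 1809 of 2951 (61.3%) carried 1 to 4 UMIs. Those cells had more Otx2 (185 ± 17.0 against 82.0 ± 12.1 CPM in the cells without Eomes), more of the vesicular glutamate transporter Slc17a6 (81.5 ± 10.5 against 35.7 ± 8.42 CPM) and more Cntn2 (273 ± 23.4 against 195 ± 18 CPM). They had less Ccnd1 (17.4 ± 5.08 against 58.7 ± 15.5 CPM) and less Sfrp1, a secreted Wnt antagonist (48.5 ± 10.8 against 110 ± 13.2 CPM). Barhl1 differed little between them, at 270 ± 19.3 and 258 ± 13.2 CPM, and so did Atoh1, at 16.8 ± 8.02 and 18.01 ± 10.0 CPM. The reporter's WPRE sequence was detected in 97.7% of the chosen cells.

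The first question between genotypes was whether the partial loss of Atoh1 function changed the share of newborn granule neurons. They made up 4.89%, 6.17% and 4.78% of kept cells in the control libraries and 3.63%, 7.07% and 6.14% in the Atoh1S193A/- libraries. Pair 1 was lower in the mutant and pairs 2 and 3 were higher, and the groups overlapped. The means were 5.28 ± 0.770% and 5.61 ± 1.78% (SD, n = 3 each), a difference of 0.0328 ± 0.216 (SE) on the logit scale, with an adjusted p of 0.897 in limma over 6 classes and p = 0.9 in a two-sided exact permutation test, for which 0.1 is the smallest possible value. With littermate pairs as a block the adjusted p was 0.824. The direction is not settled: without Atoh1S193A/- replicate 1 the logit difference was 0.242, without Atoh1S193A/- replicate 2 it was -0.109, and with every cell thinned to 5000 UMIs it was -0.0645. The share of cells cannot show a change in their number per embryo, because the libraries hold a fixed load of sorted cells.

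Residual Atoh1 was then read within the class. At the depth as deposited, an Atoh1 UMI was found in 17.0%, 9.09% and 12.4% of the newborn neurons of the control libraries and 31.8%, 20% and 15.5% of those of the Atoh1S193A/- libraries, with overlap (exact permutation p = 0.2). After thinning each cell to 5000 UMIs, which left out 20 cells, the shares were 4.34%, 4.81% and 3.92% against 11.7%, 8.78% and 6.32%. Every mutant library then lay above every control library (4.35 ± 0.447% against 8.95 ± 2.71%, SD, n = 3 each, exact permutation p = 0.1, the smallest the design allows).

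Free RNA in the droplets can give UMIs in cells that do not express a gene. In the Eomes-high cells, taken as a class that should lack Atoh1 and with a median of 10491.5 UMIs, 5.22 ± 0.925% of control and 7.12 ± 0.312% of mutant cells held an Atoh1 UMI after thinning. Those shares did not overlap between the genotypes either, at 4.30% to 6.15% in controls and 6.76% to 7.30% in mutants (exact permutation p = 0.1). The control newborn neurons lay below that level in the mean, with library 2 (4.81%) above the Eomes-high cells of its own library (4.30%), and their shares are not read as expression. The mutant newborn neurons lay above it in the mean, with library 3 (6.32%) below the Eomes-high cells of its own library (7.29%). Dividing progenitors stood at 26.4 ± 4.23% and 31.6 ± 3.70%. The part of free RNA in the difference between genotypes was not tested.

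Eomes moved in the same direction at matched depth. An Eomes UMI was found after thinning in 30.9%, 34.7% and 32.3% of the control newborn neurons and 40.6%, 41.2% and 38.9% of the mutant ones, without overlap. As deposited the shares were 61.0 ± 1.29% and 61.9 ± 3.57%, and the Eomes level in the summed counts was 0.17 ± 0.09 higher on the log2 scale without a call in edgeR. In dividing progenitors, which should lack Eomes, thinned shares ran the other way, from 10.6 ± 0.910% in controls to 9.04 ± 0.788% in mutants. Eomes is one of the gates, and thinning lowers the counts that the gates read, so this difference is given as a description of cells chosen on it.

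**Figure D2:**
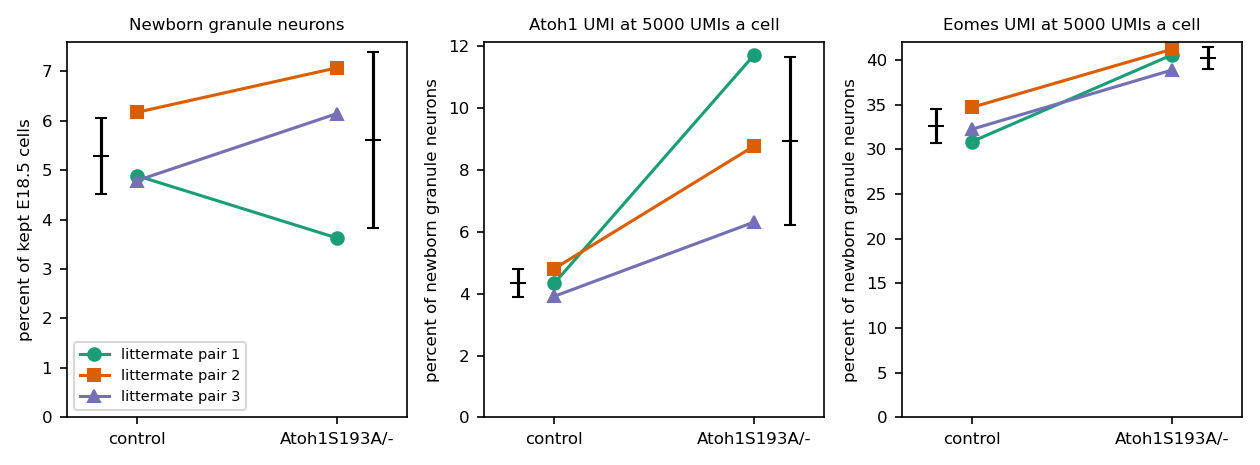
Newborn granule neurons as percent of kept E18.5 cells (left), and percent of them with an Atoh1 UMI (middle) or an Eomes UMI (right) after thinning each cell to 5000 UMIs, in control and Atoh1S193A/- libraries. Each symbol is 1 library, lines join littermates, black bars are the mean ± SD of 3 libraries, and axes start at 0. The share of cells crosses between pairs, and all 3 pairs run upwards for Atoh1. Eomes is one of the gates, and its upward run appears only after thinning, since pair 3 runs down as deposited (60.4% to 57.9%).

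Which genes differed between the genotypes in the newborn neurons was tested on counts summed per library, for genes detected in at least 10% of these cells in either genotype. A gene was called at a false discovery rate (FDR) under 0.05 and a log2 difference over 0.25. In edgeR's quasi-likelihood test without the pairs, 0 of 9023 genes were called (0%), with the smallest FDR at 0.09 for Mab21l2. At an unadjusted p under 0.05 there were 381 genes (4.22%). DESeq2 called 10 genes (0.111%), 4 higher (0.0443%) and 6 lower (0.0665%) in the mutant.

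With the littermate pairs as a block in edgeR, 41 genes were called (0.454%), 13 higher (0.144%) and 28 lower (0.31%) in the Atoh1S193A/- cells. The 10 genes of DESeq2 were all among them. In 29 of the 41 the 3 libraries of one genotype lay wholly above those of the other, against 860 of all 9023 genes tested (9.53%). The genes named next are the 12 largest differences each way among these 29, and "higher" and "lower" refer to this blocked fit.

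Atoh1 itself was the largest rise. It stood at 13.0, 9.01 and 10.4 CPM in control libraries 1 to 3 and 31.6, 20.1 and 18.46 CPM in Atoh1S193A/- libraries 1 to 3. Every mutant library lay above every control. The log2 difference was 1.10 ± 0.13 (SE) with an edgeR FDR of 0.00087 in the blocked fit and 1.11 ± 0.22 with an FDR of 0.38 without the pairs. Atoh1 (ENSMUSG00000073043) is a single-exon gene at chr6:64729125-64731245 on the plus strand of GRCm38. The mutant transcript carries the S193A change, and 3′ counts measure how much transcript there is, not its activity.

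Mab21l2, a nuclear protein gene of the developing eye and brain, was the largest fall. It stood at 39.5, 31.0 and 41.2 CPM in controls and 18.3, 17.2 and 20 CPM in mutants, with no overlap. The log2 difference was -1.004 ± 0.10 with an edgeR FDR of 0.00021 in the blocked fit, and -1.02 ± 0.13 with an FDR of 0.09 without the pairs. It was the one gene past the threshold without the pairs once Nhlh1 of at least 3 UMIs was required or equal numbers of cells were drawn. Mab21l2 (ENSMUSG00000057777) lies at chr3:86545581-86548629 on the minus strand of GRCm38.

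Gm17750, a long noncoding RNA gene at chr13:84025297-84064772 on the minus strand, stood at 44.7, 34.0 and 33.0 CPM in controls and 66.5, 65.7 and 58.5 CPM in mutants. Its log2 difference was 0.77 ± 0.08 (edgeR FDR 0.00031 in the blocked fit). Snhg11, a noncoding host gene of small nucleolar RNAs, stood at 30.1, 16.02 and 29.7 CPM against 40.9, 42.5 and 45.5 CPM. Pou3f4, a POU-domain factor of neural development, stood at 6.73, 11.3 and 9.75 CPM against 17.3, 17.1 and 17.1 CPM. All 3 were higher in every mutant library than in every control library.

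The other named rises were smaller. Opcml, a neuronal adhesion protein of the IgLON family, was higher by 0.66 ± 0.12 on the log2 scale. Bcas1, best known from early myelinating oligodendrocytes, Dusp4, a phosphatase that turns off MAP kinases, Insc (Inscuteable), an adaptor of spindle orientation, Wscd2, Rmst, a noncoding RNA of neurogenesis, Ppp2r2b, a brain subunit of protein phosphatase 2A, and Rbm3, a cold-inducible RNA-binding protein, were higher by between 0.31 and 0.40. Rmst had the narrowest spread among libraries, at 48.4, 47.3 and 48.1 CPM in controls and 61.1, 62.8 and 62.2 CPM in mutants.

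Among the named falls, Bcl11b, a zinc finger factor of postmitotic neurons, stood at 28.0, 28.8 and 33.9 CPM in controls and 11.5, 19.5 and 21.0 CPM in mutants (log2 difference -0.80 ± 0.12, edgeR FDR 0.0071 in the blocked fit). Tshz2, another zinc finger factor, was at -0.79 ± 0.12, and Grb10, an adaptor that dampens insulin-like growth factor signaling and is imprinted, was at -0.83 ± 0.15. Fgf12, a partner of voltage-gated sodium channels, was at -0.62 ± 0.13. Adamtsl1, a matrix protein gene, was at -0.84 ± 0.11, and Lhfp and the noncoding Gm16141 were at -0.68 ± 0.11 and -0.73 ± 0.15.

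The remaining named falls follow. Rab15, a small GTPase of endosomes, stood at 14.7, 15.9 and 18.4 CPM in controls and 9.41, 11.1 and 10.4 CPM in mutants (log2 difference -0.66 ± 0.13, edgeR FDR 0.042 in the blocked fit). Rnf182, a ubiquitin ligase, stood at 43.9, 46.1 and 45.6 CPM against 27.0, 32.5 and 31.6 CPM (-0.58 ± 0.08, edgeR FDR 0.0053). Kctd8, an auxiliary subunit of GABA-B receptors, stood at 34.9, 27.9 and 36.4 CPM against 21.9, 21.6 and 25.0 CPM. Caln1, a calcium-binding protein of the Golgi, was at -0.60 ± 0.11.

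Among the called genes outside the named set, Nr2f2 stood at 184, 193.1 and 189 CPM in controls and 128, 153 and 154 CPM in mutants (log2 difference -0.39 ± 0.06, edgeR FDR 0.0064 in the blocked fit). Of the 10 genes that were most reduced in the newborn neurons with most Nhlh1, 4 were among the 28 falls (Nr2f2, Syt4, Ntm and Dnm3). Of all tested genes 0.31% fell. The 10 genes were picked from these same cells of both genotypes by the count of a gate gene. The 4 are therefore a description and not independent support. Syt4, Ntm and Dnm3 overlapped between the genotypes, with an edgeR FDR of 0.997 each without the pairs. Cells with 5 or more Nhlh1 UMIs, at the depth as deposited, were fewer in the mutants. They made up 43.7%, 35.2% and 39.6% of the newborn neurons in controls and 30.8%, 31.9% and 32.8% in mutants, without overlap. Nhlh1 is a gate gene, and median depth rose with its raw count, so these shares are a description. Median depth in mutant against control was 13630 against 15790.5 UMIs in pair 1, 12401 against 11867 in pair 2 and 10461.5 against 14645 in pair 3. Scaled to CPM, Nhlh1 overlapped between the genotypes. These shares were not thinned, and their part in the genotype differences was not tested. When the Nhlh1 gate was dropped, the log2 differences of Syt4, Dnm3 and Syt1 turned to 0.08, 0.06 and 0.01, so the direction of these 3 depended on the Nhlh1 gate.

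**Figure D3:**
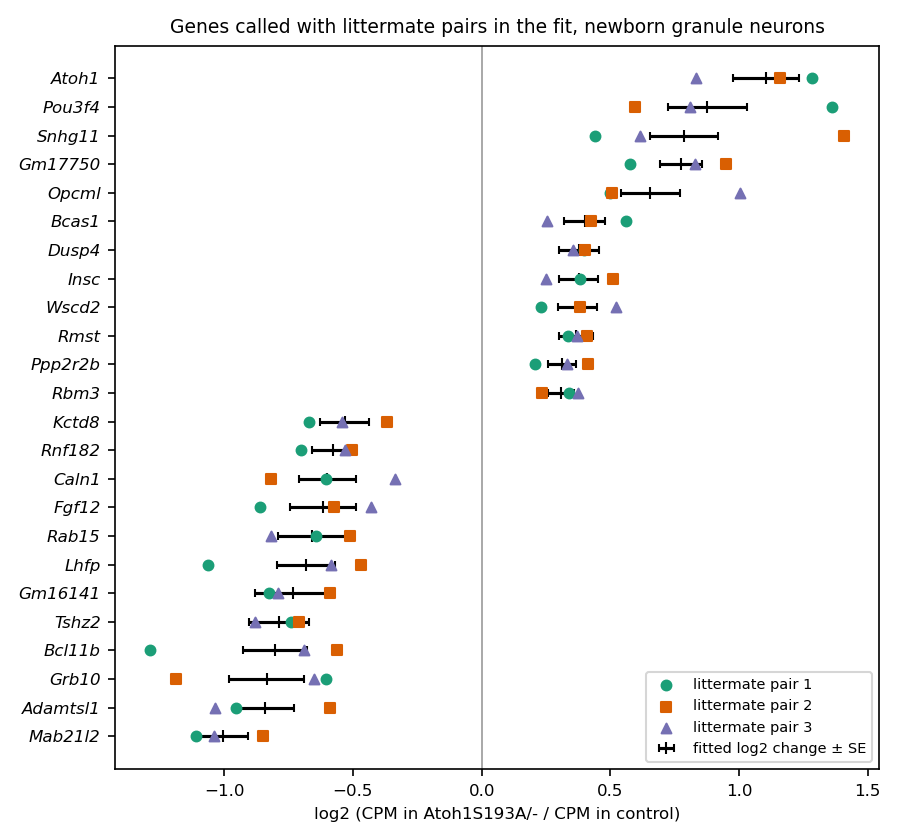
Genotype difference of the 24 named genes within each littermate pair of the newborn granule neurons, as log2 of CPM in Atoh1S193A/- over CPM in control. Symbols are the 3 pairs, and the black bars are the log2 difference ± SE of the blocked edgeR fit. All 3 pairs lie on one side of 0 for every gene shown, as the rule for naming them requires, from -1.0 for Mab21l2 to 1.10 for Atoh1 in the fit.

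The promoters of called genes were read for an E-box, the short motif that bHLH dimers bind. The letters CAGCTG, which read the same on both strands, were searched in windows from 250 bases before to 50 bases after the RefSeq start sites (GRCm38.p6). Of 32851 windows in the table, 5355 held the motif (16.3%), and of the 9178 windows of genes tested between genotypes, 1307 did (14.2%). Among the falls, 6 of 35 windows held it (17.1%, 24 genes matched), those of Caln1, Draxin, En1, Kctd8, Rab15 and Syt1, and among the rises 1 of 6 (16.7%, 6 genes matched), that of Snhg11. The shares lay near that of all promoters. Of these 7 genes, the windows of the 4 named above for their genotype difference are shown, with the motif in capitals, 5′ to 3′ on the strand of the gene. They lie at chr12:76822475-76822774 (minus, Rab15), chr5:130369208-130369507 (plus, Caln1), chr5:69341660-69341959 (minus, Kctd8) and chr2:158375463-158375762 (plus, Snhg11).
Rab15: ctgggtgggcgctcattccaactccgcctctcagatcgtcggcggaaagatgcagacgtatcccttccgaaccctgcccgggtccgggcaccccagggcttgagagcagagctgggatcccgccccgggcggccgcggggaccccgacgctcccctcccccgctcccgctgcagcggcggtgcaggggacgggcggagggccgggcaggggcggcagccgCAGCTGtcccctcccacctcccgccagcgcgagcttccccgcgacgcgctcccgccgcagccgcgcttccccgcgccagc
Caln1: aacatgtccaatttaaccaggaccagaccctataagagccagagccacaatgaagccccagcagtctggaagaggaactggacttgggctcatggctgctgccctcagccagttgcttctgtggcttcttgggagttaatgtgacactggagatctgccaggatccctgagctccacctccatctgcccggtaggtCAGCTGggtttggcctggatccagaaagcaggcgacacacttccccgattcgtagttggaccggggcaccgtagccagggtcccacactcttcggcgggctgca
Kctd8: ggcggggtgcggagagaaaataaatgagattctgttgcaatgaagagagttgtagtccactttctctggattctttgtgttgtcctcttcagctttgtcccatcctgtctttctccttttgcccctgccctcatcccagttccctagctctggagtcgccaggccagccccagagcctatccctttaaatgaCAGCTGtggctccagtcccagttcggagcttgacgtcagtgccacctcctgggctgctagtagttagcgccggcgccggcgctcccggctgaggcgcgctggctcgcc
Snhg11: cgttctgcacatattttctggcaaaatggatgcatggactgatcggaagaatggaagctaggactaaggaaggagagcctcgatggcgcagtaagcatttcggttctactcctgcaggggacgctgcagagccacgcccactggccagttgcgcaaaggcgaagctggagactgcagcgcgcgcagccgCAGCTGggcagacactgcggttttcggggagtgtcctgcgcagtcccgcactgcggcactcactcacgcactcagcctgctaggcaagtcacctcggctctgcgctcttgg
A match of letters is not a binding site, and no binding was measured in these cells.

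Lists of genes by role were then read in the same fits, each as a count and a median beside those of all 9023 genes, whose median log2 difference was -0.005 and of which 0.454% were called in the blocked fit. No list had a called gene without the pairs. Of 30 genes of granule identity, 28 were tested, with a median of 0.07. Atoh1 was higher and En1 lower in the blocked fit, and 26 were not called. Neurod1 stood at 1607, 1845 and 2059 CPM in controls and 1526, 1953 and 2328 CPM in mutants, Nhlh1 at 296, 351 and 316 against 284, 321 and 369 CPM, and Pax6 at 752, 919 and 876 against 746, 900 and 968 CPM. The groups overlapped for all 3 gate genes. Zic1 (log2 difference 0.00 ± 0.07) and Barhl1 (-0.04 ± 0.07), a direct Atoh1 target in textbook accounts, overlapped as well, as did Sox11 and Nfib.

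Of 30 genes of granule neuron maturation, 26 were tested, with a median of -0.01. Syt1, the calcium sensor of vesicle release, was lower in the blocked fit (318, 298 and 415 against 254, 256 and 336 CPM), and the others were not called. The growth-cone genes Stmn2 and Gap43 gave log2 differences of -0.06 ± 0.06 and -0.07 ± 0.07, and Tubb3 and Elavl3 gave -0.02 ± 0.06 and -0.01 ± 0.07. Grin2b and Nefl passed an unadjusted p under 0.05 in opposite directions, at 0.24 ± 0.08 and -0.24 ± 0.09.

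Division and its exit showed no called gene. None of 17 tested cell cycle exit and cyclin genes (median -0.02), 14 S phase genes (median -0.12), 3 G2 and mitosis genes (median 0.21, the list being gated low through Mki67 and Top2a), 9 hedgehog pathway genes (median -0.07) or 10 Notch pathway genes (median 0.03) was called. Ccnd2 gave -0.15 ± 0.11, Cdkn1c, an inhibitor of cyclin-dependent kinases, gave -0.31 ± 0.14, and Gas1, a hedgehog coreceptor, gave -0.35 ± 0.11, at 22.8, 22.3 and 25.8 CPM against 17.6, 19.1 and 19.1 CPM. The Notch ligand Dll3 stood at 18.4, 17.3 and 14.4 CPM in controls and 22.2, 29.2 and 19.7 CPM in mutants, without overlap, with an edgeR FDR of 0.096 in the blocked fit.

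None of 31 tested genes of migration and axon guidance (median -0.01) and none of 15 of the Bcl2 family and cell death (median 0.00) was called. The guidance genes with most counts, Sema6a, Unc5c, Pafah1b1 and Nrcam, gave log2 differences between -0.07 and 0.06. The death effector Bax gave 0.00 ± 0.08 and its antagonist Mcl1 0.04 ± 0.06. A list of 14 genes that the study or earlier results of these libraries link to Atoh1 had 10 genes tested and a median of -0.19, with Atoh1 higher and Rab15 and Mab21l2 lower in the blocked fit, against 0.454% called of all genes. Since that list was drawn up with these libraries known, its direction is not independent evidence.

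Markers of other cell types were checked in the same cells. The 10 unipolar brush cell markers summed to between 525 and 559 CPM in controls and between 586 and 629 CPM in mutants, without overlap, against 796 to 890 CPM in all kept cells, with Sln at 0. None of the 6 tested was called (median 0.16). Calb2 stood at 6.73, 2.86 and 5.26 CPM in controls and 12.7, 15.8 and 8.55 CPM in mutants, and Plcb1 at 164, 185 and 181 against 203, 207 and 204 CPM. The part of these markers in the genotype differences was not tested.

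Glia markers summed to between 746 and 874 CPM in controls and 728 and 736 CPM in mutants, without overlap, most of it Vim, with Fabp7, a radial glia gene, at 42.8, 92.5 and 43.2 against 24.5, 21.1 and 53.3 CPM. None of 5 tested was called (median -0.11). Oligodendrocyte lineage markers summed to 118 to 126 CPM and 125 to 147 CPM, mostly Pdgfra and Mbp, with Sox10 at 0 and none of 2 called (median 0.22). Markers of inhibitory neurons (160 to 225 and 177 to 252 CPM, mostly Lhx1, none of 1 called, median 0.07), cerebellar nuclei (667 to 742 and 679 to 723 CPM, mostly Reln, none of 3 called, median 0.00), the Hox and pontine list (125 to 150 and 112 to 148 CPM, mostly Neurod6, none of 1 called, median -0.08) and the dissociation response (1857 to 1966 and 1670 to 2401 CPM, none of 8 called, median 0.08) overlapped between genotypes. Microglia and blood genes summed to 2.66 to 16.5 and 0.877 to 4.94 CPM, and vessel and choroid plexus genes to 9.71 to 16.6 and 11.8 to 37.2 CPM, with none detected often enough to be tested. In all kept cells the sums ran from 573 to 890 CPM for glia and 176 to 311 for the Hox and pontine list. They ran from 14.1 to 239 for microglia and blood and 27.5 to 272 for vessel and choroid plexus. Newborn neurons lay above all kept cells for the oligodendrocyte (72.6 to 97.1) and inhibitory lists (109 to 159). They also did for the nuclei (507 to 574) and dissociation lists (1063 to 1405). The part of these lists in the differences between genotypes was not tested.

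Whether the genotype differences were the same in newborn neurons as in the dividing cells before them was asked by an interaction in edgeR, with each library as its own block. The 3 control libraries and 3 mutant libraries each gave both classes. In the progenitors alone, 18 of 9724 genes were called (0.185%), 12 higher (0.123%) and 6 lower (0.0617%), and 233 (2.4%) with the pairs as a block, 112 higher (1.15%) and 121 lower (1.24%). The genotype difference itself was called as different between the classes for 29 of 10168 genes (0.285%). Of these, 24 had passed the filter on low genes in both classes, 11 with a more positive difference in the newborn neurons and 13 with a more negative one. The other 5 had passed it in the progenitors alone. This comparison was added after the data had been seen. Some named genes had log2 differences at least as large in size in the progenitors, without the pairs. They were 1.14 for Bcas1, 0.65 for Rmst, 0.82 for Gm17750, -1.21 for Mab21l2 and -0.70 for Kctd8. In newborn neurons these were 0.40, 0.37, 0.77, -1.02 and -0.54. Bcl11b, Opcml and Pou3f4 had smaller ones in progenitors, at 0.12, 0.24 and 0.22 against -0.80, 0.66 and 0.88. None of these genes was called as different between the classes.

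Rab15 differed most on the positive side. In progenitors it stood at 29.9, 42.6 and 34.4 CPM in controls and 6.79, 7.16 and 8.44 CPM in mutants, and in newborn neurons at 14.7, 15.9 and 18.4 against 9.41, 11.1 and 10.4 CPM. Its log2 difference was less negative in the newborn neurons by 1.60 ± 0.19 (edgeR FDR 0.00016). Barhl1 stood at 301, 274 and 272 CPM in control and 192, 192 and 186 CPM in mutant progenitors, without overlap, and at 252 to 276 CPM in control and 255 to 276 CPM in mutant newborn neurons, a difference of 0.53 ± 0.06 (edgeR FDR 0.00016). Cbln1, the secreted organizer of parallel fiber synapses, Slc17a6, Socs2, Diras2, Camk4 and the genes Gm28050 and Gm2694 were called in the same direction, with log2 differences between -0.31 and -0.75 in the progenitors and between -0.21 and 0.29 in the newborn neurons.

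Atoh1 went the other way round. Its progenitor levels were 71.4, 66.8 and 64.6 CPM in controls and 89.0, 84.6 and 71.3 CPM in mutants, a log2 difference of 0.27, against 1.11 in the newborn neurons. The difference between the classes was 0.83 ± 0.16 (edgeR FDR 0.023). In CPM the means went from 67.6 to 81.6 in the progenitors and from 10.8 to 23.4 in the newborn neurons. The larger log2 difference of the newborn neurons thus stands on a low base. Their control shares of cells with an Atoh1 UMI were not read as expression above. The part of free RNA in the difference between the classes was not tested.

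On the negative side, Hrk, a pro-apoptotic gene of the Bcl2 family, stood at 3.70, 4.36 and 4.08 CPM in control and 23.7, 23.1 and 24.0 CPM in mutant progenitors, without overlap. In the newborn neurons it stood at 6.73, 4.29 and 3.87 CPM in controls and 7.53, 3.18 and 8.38 CPM in mutants, and the difference between the classes was -2.24 on the log2 scale. Hrk is one of the 5 genes that entered the comparison through the progenitors alone, with Zfp503, Fbxo2, Cdh6 and Thrsp, so its values are a description. Hes6, a bHLH gene that promotes differentiation, and Gadd45g had higher values in mutant progenitors (209 ± 12.9 against 259 ± 20.1 CPM and 91.3 ± 2.56 against 126 ± 11.4 CPM). In newborn neurons Gadd45g overlapped between genotypes and Hes6 stood at 128, 127 and 121 CPM in controls and 115, 115 and 117 CPM in mutants. Nr2f2 and Fgf12 had the reverse layout, with the deficit in the newborn neurons and overlapping levels in the progenitors (83.3 to 97.7 against 83.5 to 100 CPM for Nr2f2).

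**Figure D4:**
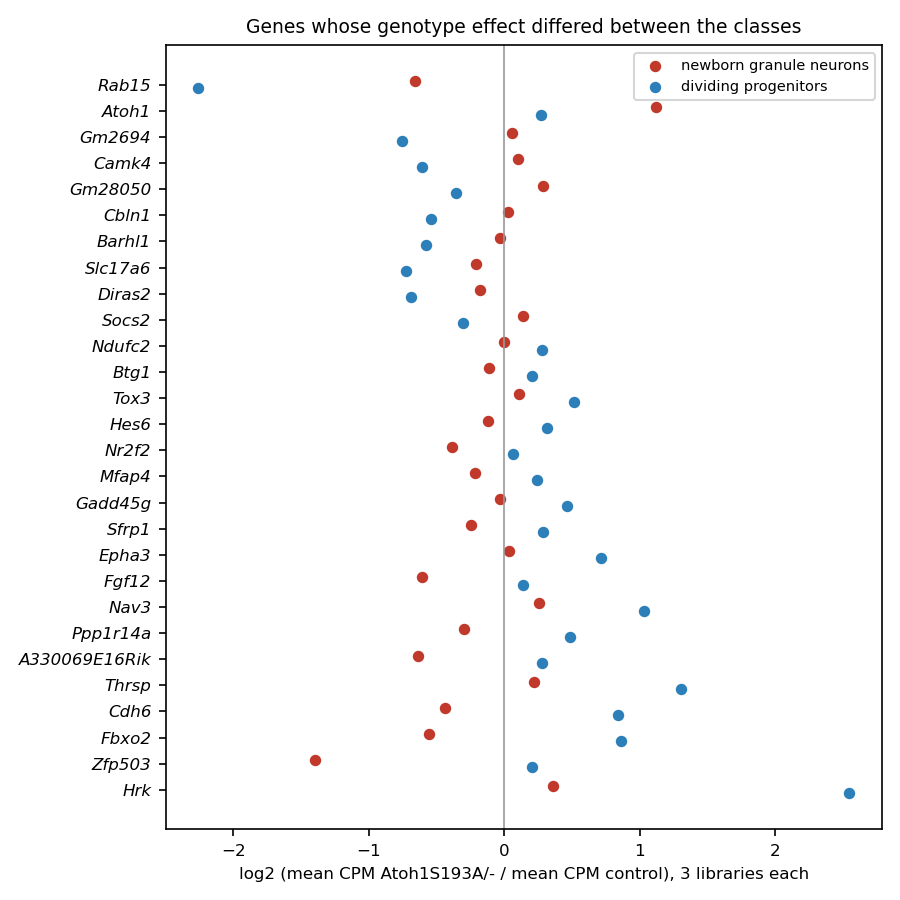
Genotype difference of 28 of the 29 genes whose difference depended on the class, as log2 of mean CPM in Atoh1S193A/- over mean CPM in control (3 libraries each), in newborn granule neurons (red) and dividing progenitors (blue). Genes are ordered by the difference between the classes, from Rab15 at the top to Hrk at the bottom. Most red points lie nearer to 0 than the blue ones. Atoh1, Zfp503, Nr2f2, Fgf12 and A330069E16Rik are the exceptions with the larger log2 change in the newborn neurons, that of Atoh1 from a low base. Hrk, Zfp503, Fbxo2, Cdh6 and Thrsp passed the filter on low genes in the progenitors alone.

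Against the 105 Hox-positive Nhlh1 neurons, no genotype difference was shown to depend on the class. Of 10583 genes, 0 were called in edgeR's interaction test (563 at an unadjusted p under 0.05). With 6 to 29 cells per library in the Hox-positive class, the test had little to work with. Without the filter on low genes, 22 genes were called.

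Cells that met the same gates at E14.5 were used to ask how the profile of such cells differed with age. There were 105, 165 and 170 in the control and 115, 163 and 99 in the Atoh1S193A/- libraries, and 0 and 113 in the P5 libraries of the pontine nuclei, which were not compared. Among control libraries, 585 of 9636 genes were called between the ages in edgeR (6.07%, at an FDR under 0.05 and a log2 difference over 1), 281 higher (2.92%) and 304 lower (3.15%) at E18.5. The file headers name an older Cell Ranger (3.1.0) for E14.5 controls 1 and 2 than for the remaining controls (5.0.1), and with version 5.0.1 alone (1 against 3 libraries) 427 genes were called, 333 of them among the 585. In that fit the lone E14.5 library is assumed to vary like the E18.5 libraries. Of the 63 called genes that belong to the lists or to the largest changes, 40 were called in it, and 7 no longer passed the filter on low genes. The ages came from different litters, so age and batch cannot be told apart.

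The rises led with genes seen above in the newborn neurons. Cartpt stood at 39.1, 17.0 and 9.75 CPM at E14.5 and 262, 344 and 390 CPM at E18.5 (log2 difference 3.98 ± 0.37, edgeR FDR 0.00018). Barhl2, the relative of Barhl1, stood at 10.9, 6.76 and 10.1 CPM against 83.6, 79.7 and 65.7 CPM, and Pdgfra at 10.4, 3.53 and 14.6 against 67.2, 57.2 and 62.1 CPM. The other largest rises were 1500015O10Rik, Cog7, a Golgi tether subunit, Timp3, a protease inhibitor, Prkcb, a protein kinase C of neurons, and Slc29a1, a nucleoside transporter, at log2 differences between 2.75 and 3.40. None of these overlapped between the ages.

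The largest falls were Ttr, AC160336.1, Lhx2, Meis2, Crabp2, Lmx1a, Calb2 and Pcp4. Lhx2 stood at 59.5, 88.5 and 39.4 CPM at E14.5 and 1.32, 0.683 and 0.745 CPM at E18.5, and Meis2 at 205, 500 and 197 against 13.7, 6.42 and 10.7 CPM. E14.5 control 2 set the means of Crabp2, Lmx1a, Calb2 and Pcp4, with Lmx1a at 20.8, 134 and 20.2 CPM and Calb2 at 17.8, 216 and 74.9 CPM in the E14.5 libraries. Without that library Lmx1a and Calb2 no longer passed the filter on low genes, and the log2 difference went from -6.05 to -4.92 for Crabp2 and from -4.10 to -3.00 for Pcp4, both still called by edgeR. Ttr, a choroid plexus gene, stood at 27.8, 9.11 and 1003 CPM at E14.5, so library 3 set its mean. AC160336.1 stood at 465, 488 and 3.14 CPM at E14.5, high in the 2 libraries of the older Cell Ranger version alone, and its log2 difference turned from -3.89 to 2.77 without them.

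Of 8 tested markers of the cerebellar nuclei, 6 were lower at E18.5, Tbr1, Lhx2, Lhx9, Meis2, Irx3 and Foxp2 (median log2 difference -4.11, against 0.01 for all genes, of which 3.15% were lower). With the Cell Ranger 5.0.1 libraries alone Foxp2 was not called (edgeR FDR 0.449) and Irx3 did not pass the filter on low genes. Tbr1 stood at 13.4, 74.1 and 13.2 CPM at E14.5 and 0.883, 0.956 and 0.745 CPM at E18.5. Without E14.5 control 2 its log2 difference went from -5.32 to -3.93, and Irx3 did not pass the filter on low genes. The gates therefore took in cells with nuclear neuron markers at E14.5 that were near absent at E18.5, and the age differences describe the gates, not 1 cell type followed over time. The part of those cells in the other differences was not tested.

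The counts by role stand beside 2.92% higher and 3.15% lower of all 9636 genes. The hedgehog genes Ptch1 (33.7, 23.8 and 29.6 against 74.7, 71.5 and 69.4 CPM) and Gli2 were among those higher at E18.5, and the coreceptors Gas1 and Cdon were lower, out of 10 tested. Ccnd2 (203, 208 and 259 against 563, 762 and 581 CPM) and Cdk6 were higher, and Cdkn1c (110, 197 and 176 against 27.7, 23.6 and 29.2 CPM), Gadd45g, Ccnd3 and Hes6 were lower, 6 of 17 tested. Of 27 tested maturation genes, Rbfox3, Slc17a7 and Grin2b were higher and Tubb3, Nefl and Calb2 lower. With the Cell Ranger 5.0.1 libraries alone Grin2b stayed called, Calb2 did not pass the filter, and the log2 differences of the others fell short of 1, at 0.76 for Rbfox3, 0.81 for Slc17a7, -0.89 for Tubb3 and -0.94 for Nefl. Without E14.5 control 2 the log2 differences of these 4 were 0.77, 0.98, -0.90 and -1.001. In granule identity, Nfix (126, 126 and 130 against 412, 399 and 348 CPM) and Barhl2 were higher and Meis2 and Atoh1 lower, 4 of 28 tested.

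Among 38 tested guidance genes, Astn2, Unc5b and Ephb2 were higher and Cxcr4, a chemokine receptor of migrating cells (35.2, 49.1 and 23.3 against 10.0, 8.20 and 7.30 CPM), Robo3, Slit2, Ntrk3 and Nrp1 were lower. Of 8 tested unipolar brush cell markers, those higher included Otx2 and Plcb1, and Lmx1a and Calb2 were lower. Lhx1 stood at 32.2, 24.7 and 26.8 CPM against 146, 209 and 181 CPM. The calls in the other lists included Hells, Cenpf, Ube2c, Slc1a3, Pdgfra, Atf3 and Prox1, which were higher, and Nrarp, Dap, Ttr, Rab15, Mab21l2, Pcp4 and Necab2, which were lower. Atoh1 stood at 22.8, 26.7 and 14.6 CPM against 12.5, 8.61 and 9.98 CPM (log2 difference -1.06 ± 0.24, edgeR FDR 0.012), and the FDR was 0.265 with the Cell Ranger 5.0.1 libraries alone. Mab21l2 stood at 61.4, 131 and 39.0 CPM against 38.0, 29.6 and 39.6 CPM, with overlap, and its log2 difference went from -1.15 to -0.13 (edgeR FDR 0.685) with those libraries alone and to -0.48 without E14.5 control 2. With those libraries alone Cdon, Robo3, Nrarp and Necab2 did not pass the filter on low genes and were not tested. Gadd45g, Hells, Slc1a3, Atf3 and Rab15 kept their direction without a call, with log2 differences going from -1.53 to -0.85, 1.01 to 0.97, 1.12 to 1.66, 2.48 to 1.56 and -1.13 to -0.97. Without E14.5 control 2, Cdon, Robo3, Ntrk3 and Necab2 did not pass the filter, and Atoh1, Hells and Cenpf were not called, at -0.84, 0.90 and 1.04.

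**Figure D5:**
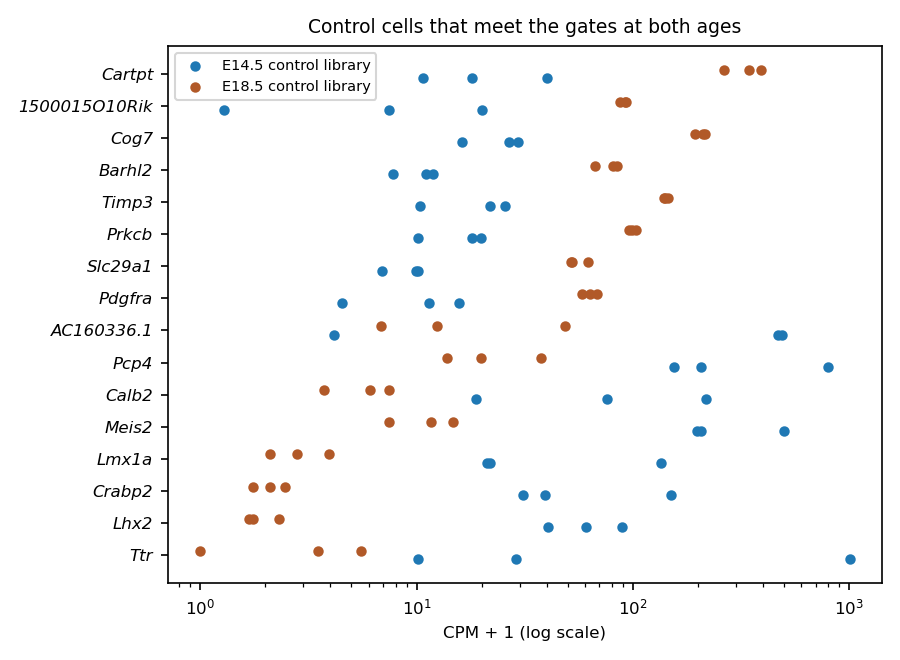
Levels in control cells that met the gates at E14.5 (blue, 3 libraries) and E18.5 (brown, 3 libraries) for the 8 largest rises and 8 largest falls with at least 50 CPM at either age, as CPM + 1 on a log axis. Each point is 1 library. The ages do not overlap for the rises. The E14.5 points of AC160336.1 split into 2 high libraries and 1 low one, and 1 E14.5 library holds most of the Ttr.

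The E14.5 cells of the gates were also compared between genotypes, in a fit added after the data had been seen. All 3 mutant libraries were made with Cell Ranger 5.0.1, so in pairs 1 and 2 the genotype and the software version cannot be told apart. Per the supplement, the E14.5 control of pair 1 was female and its mutant male, so in that pair sex cannot be told apart from genotype either. Without the pairs 0 of 9797 genes were called by edgeR (245 at an unadjusted p under 0.05), and with the pairs as a block 14 were (0.143%), 7 higher and 7 lower (0.0715% each). Atoh1 was the single gene called at both ages, with a log2 difference of 1.24 at E14.5 (edgeR FDR 0.0034 in the blocked fit) and 1.10 at E18.5. Scaled over the 12 libraries of both ages, it stood at 23.1, 27.1 and 14.8 CPM in E14.5 controls and 40.6, 70.4 and 39.2 CPM in E14.5 mutants, without overlap, and pair 3, in which both libraries came from version 5.0.1, had the same direction. With the version 5.0.1 libraries alone (1 control against 3 mutants, without the pairs, the lone control being assumed to vary like the mutants) the log2 difference of Atoh1 was 1.80, and edgeR called 0 genes, as it did with all 6 libraries (85 at an unadjusted p under 0.05). Of the 41 genes called at E18.5, 39 were tested at E14.5. Of 11 rises 9 had a positive difference there, with a median of 0.15, and of 28 falls 18 had a negative one, with a median of -0.21, against a median of 0.01 for all genes. With the version 5.0.1 libraries alone these counts were 6 of 11 (median 0.01) and 18 of 28 (median -0.26), against a median of 0.02 for all genes.

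The difference between the ages in the genotype effect was itself called for 0 of 9911 genes without the pairs (310 at an unadjusted p under 0.05) and for 4 with them (0.0404%), AC160336.1, Draxin, Mab21l2 and Zfhx3. Mab21l2 had a log2 difference of -0.02 at E14.5 with all 6 libraries. With the version 5.0.1 libraries alone (1 control against 3 mutants, without the pairs) it was 0.98. Draxin, a repellent of growing axons, stood at 79.4, 68.8 and 79.1 CPM in control and 56.1, 51.7 and 63.2 CPM in mutant newborn neurons at E18.5, and its log2 difference at E14.5 was 0.36. AC160336.1 is the gene whose level followed the Cell Ranger version at E14.5. With the version 5.0.1 libraries alone and the pairs as a block, where pair 3 gives the whole E14.5 effect, 5 genes were called (0.0504%, Calb2, Hist1h2bc, Snhg11, Sst and Zfhx3), Zfhx3 being the one shared with the 4. The difference between the ages went from -0.98 to -1.26 for Mab21l2 (edgeR FDR 0.073) and from -0.76 to -0.58 for Draxin (edgeR FDR 0.43), so both kept their direction in a fit with a single E14.5 pair.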

How the data were processed

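The authors deposited UMI counts per gene and cell, not normalized, for 31054 features in each of 14 libraries. Per the methods and labels, reads of the 10x Genomics 3′ v3.1 kit were counted with Cell Ranger 5.0.1 on an mm10 reference that also held WPRE. Per the file headers, E14.5 control libraries 1 and 2 were made with Cell Ranger 3.1.0. The methods state a limit of 1% mitochondrial UMIs and refer to code, not used here, for criteria by age. A limit of 1% would leave between 18 and 84 cells per E18.5 library, and 10% was used here. Of 150188 barcodes in the series, 122658 passed. No doublets were removed from the main set, and the Scrublet scores of scanpy 1.11.5 served for an alternative without the highest 7.5%.

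Newborn granule neurons were chosen by the gates on raw UMI counts, and their counts were summed per library. The members and the gene lists were chosen with earlier results of these data known. Sums were tested in R 4.3.3 with edgeR 4.0.16 (TMM scaling, quasi-likelihood test, Benjamini-Hochberg adjustment) and, as an alternative, DESeq2 1.42.0, over genes detected in no fewer than 10% of the cells of 1 group. Shares were tested with limma 3.58.1 on the logit scale, with 0.5 cells added, and by exact permutation. CPM in comparisons between classes were log transformed after adding 1, and within the newborn neurons after adding 10. P-values of the main genotype fits measure the spread between 3 embryos per genotype. Those of the blocked fits measure the spread of the differences within 3 littermate pairs. In the interactions between classes they measure the spread between libraries of the difference between the classes. The main age fit compares 3 embryos per age. The count fits were tested on simulated data.

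Main fits had no replicate block. The labels give a replicate number, and per the methods each mutant embryo had a littermate control. After removal of genotype means, libraries of the same number correlated at 0.5171, 0.4438 and 0.6774 for pairs 1 to 3. Libraries of different numbers gave -0.4996 to 0.1507. The supplement lists E18.5 pairs 1 and 2 as male and E18.5 pair 3 as female. Values across pairs 1 and 2 were 0.1507 and 0.1006, and across sexes -0.4996 to -0.375, so litter and sex are not told apart for pair 3. Deviations sum to 0 within a genotype, which forces some negative values. The numbers were therefore taken to pair the libraries, and the blocked fit is given beside the main one where it changes the calls.

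Named genes were the gate genes and Atoh1, the 12 largest rises and 12 largest falls between genotypes whose libraries did not overlap (from the blocked fit, since the main fit called none), the called members and up to 4 most abundant members of each list, the 8 largest changes each way between ages and the 10 largest differences each way between classes with at least 50 CPM in either group. Other genes were named after their values were seen, and some genes are not reported here. Gene positions came from GENCODE vM21, which matched 30934 of the 31054 features, and promoter windows from RefSeq. The shares of cells with a UMI were compared after thinning each cell to 5000 UMIs. The alternatives were another test, no filter on low genes, a limit of 5%, doublets removed, equal cells per library, other Nhlh1 and Hox gates, leaving out each library and, added after seeing the data, the Cell Ranger 5.0.1 libraries alone for the fits that use E14.5.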

Additional observations from a re-analysis of the deposited data

Results flagged for a closer look

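The genotype difference of 29 genes was called as different between newborn granule neurons and dividing progenitors by edgeR's interaction test (FDR under 0.05), a comparison added after the data had been seen, and 24 of them had passed the filter on low genes in both classes. On the positive side the largest values of the log2 difference in the newborn neurons minus that in the progenitors were 1.60 for Rab15, 0.83 for Atoh1, 0.80 for Gm2694, 0.69 for Camk4 and 0.63 for Gm28050. The 5 largest on the negative side, -2.24 for Hrk, -1.63 for Zfp503, -1.42 for Fbxo2, -1.32 for Cdh6 and -1.08 for Thrsp, belong to genes that passed the filter in the progenitors alone, so they are a description and not a tested difference.

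Zfp503, a zinc finger gene, stood at 8.72, 8.44 and 7.74 CPM in control and 4.28, 2.12 and 3.08 CPM in Atoh1S193A/- newborn neurons, and at 10.4, 8.64 and 10.6 against 12.1, 10.4 and 11.6 CPM in progenitors. Thrsp, a lipogenic factor, stood at 14.1, 12.8 and 16.4 CPM in control and 43.2, 35.4 and 28.4 CPM in mutant progenitors, and at 8.57, 8.01 and 9.28 against 10.8, 11.0 and 8.38 CPM in newborn neurons. Fbxo2, a ubiquitin ligase subunit, had means of 8.65 ± 1.60 and 15.7 ± 1.48 CPM in progenitors and 3.93 ± 0.682 and 2.68 ± 0.203 CPM in newborn neurons, and Cdh6, a cadherin, 5.4 ± 0.702 and 9.67 ± 1.34 CPM and 6.52 ± 1.12 and 4.82 ± 1.86 CPM.

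Hrk, Zfp503, Fbxo2, Cdh6 and Thrsp had a UMI in too few newborn neurons to enter their own genotype fit, so their values there rest on few counts. Camk4, a calcium-dependent kinase, stood at 20.4 ± 1.16 CPM in control and 13.4 ± 2.05 CPM in mutant progenitors.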

How the results depend on the processing

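With littermate pairs as a replicate block the number of genes called between genotypes in the newborn granule neurons went from 0 to 41. A block on the replicate number, which marks no shared litter between the ages, gave 593 genes for the age difference against 585. DESeq2 called 10, and edgeR called 2 (Gm17750 and Mab21l2) without the filter on low genes, 1 (Mab21l2) with equal cells per library and 1 (Mab21l2) with Nhlh1 of at least 3. Leaving out each library gave 0 to 1 (Gm17750 without control replicate 1, Mab21l2 without control replicate 2). Without the Nhlh1 gate, which added 7476 cells, the log2 differences went to 0.058 for Dnm3, 0.080 for Syt4 and 0.010 for Syt1. The age difference of AC160336.1 reversed to 2.77 with the Cell Ranger 5.0.1 libraries alone, which called 427 genes, 977 being called without the filter. The logit difference of the share, 0.0328, reversed to -0.0645 when thinned and to -0.0324 with Pax6-positive Hox-negative cells as the denominator, and ran from -0.109 to 0.242 leaving out each library. Against Hox-positive neurons, 22 genes were called without the filter, 1 with a Hox gate of at least 1, and 0 to 6 leaving out each library (6 without Atoh1S193A/- replicate 1). Against progenitors, 114 were called without the filter and 20 to 43 leaving out each library (21 without control replicate 1, 43 without control replicate 2, 20 without Atoh1S193A/- replicate 2). The causes were not tested. With 3 embryos per genotype, no exact permutation p can go below 0.1, and genes under about 10 CPM rest on few UMIs per library.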

Other observations

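Several transcription factor genes also varied within the newborn granule neurons, given as a description. Between cells with 5 or more Nhlh1 UMIs and cells with exactly 2, En1 stood at 103 ± 19.9 against 62.7 ± 15.9 CPM and Nhlh2 at 404 ± 42.5 against 268 ± 42.9 CPM, while Nfix, a nuclear factor I gene, stood at 348 ± 41.9 against 490 ± 66.1 CPM, each in the same direction in 6 of 6 libraries. Nfib, of the same family as Nfix, ran the other way, at 1868 ± 132 against 1470 ± 154 CPM. Between cells with 1 to 4 Eomes UMIs and cells with none, En1 stood at 92.9 ± 23.2 against 61.0 ± 10.8 CPM, Barhl2 at 96.5 ± 10.8 against 63.8 ± 8.33 CPM and Zbtb20, a zinc finger gene, at 126 ± 22.2 against 80.5 ± 8.26 CPM.

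Of the E18.5 cells outside the class, 7476 failed the Nhlh1 gate alone, 1690 the gate on cycling genes alone, 1566 the Tlx3 gate alone, 948 the Eomes gate alone, 275 the Hox gate alone and 69 the Barx2 gate alone.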
